A study of Mus musculus with 8 samples.

Results

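The genes described here encode the secreted Wnt ligands, their Frizzled (Fzd) receptors and the secreted antagonists of the Dickkopf (Dkk) and secreted Frizzled-related (Sfrp) families, measured in mouse hepatic stellate cells, the retinoid-storing pericytes of the liver. Members were chosen by symbol alone, as each gene with a probe set of 1 gene symbol whose name starts with Wnt, Fzd, Dkk or Sfrp followed by a digit. The rule found 38 of 19938 genes, namely 19 Wnt, 11 Fzd, 4 Dkk and 4 Sfrp genes. One of the 11 Fzd entries, Fzd10os, is a long non-coding RNA gene in RefSeq and not a receptor gene. The antagonist gene often called Sfrp3 is listed as Frzb, does not match the rule and is given with the rest of the pathway.

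Sorted stellate cells of normal male Balb/c mice (quiescent, 4 arrays) were compared with those of male Balb/c mice that had received CCl4, a liver toxin, and had then been rested (reverted, 4 arrays). The dose was 4 injections of 0.5 µl per g body weight, 2 in each week, and the rest lasted 45 days. Age is stated as 18 weeks for both groups in one place and as 16 weeks for the reverted group in another. Cells were gated on retinoid autofluorescence and lysed after the sort, so cells without retinoid lie outside the gate, and the 8 arrays hold no group from the time of injury. No label names a vehicle injection for the quiescent mice or says how many mice an array holds, so the p-values speak for the scatter among these arrays, part of which may be technical.

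In the canonical branch of the pathway, a Wnt ligand binds a Frizzled together with Lrp5 or Lrp6, which stops the destruction of beta-catenin and lets it act with TCF/LEF factors on target genes. Other ligands, among them Wnt5a, can signal through Frizzled and Ror receptors without beta-catenin. Sfrp proteins and Frzb carry a Frizzled-like domain and bind Wnt ligands outside the cell, while Dkk1, Dkk2 and Dkk4 bind Lrp5 and Lrp6. In the liver, Wnt ligands of endothelial cells around the central vein maintain the zonation of hepatocytes, and Wnt signals have also been studied in the activation of stellate cells.

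None of the 38 genes differed between reverted and quiescent cells past the threshold of limma (Benjamini-Hochberg adjusted p under 0.05 over 19938 genes), with 0 called of 38 against 0.712% of all genes (0.527% higher and 0.186% lower). The smallest adjusted p among them was 0.115, that of Wnt5a. At an unadjusted p under 0.05 there were 10 genes, 2 with a higher and 8 with a lower mean in reverted cells. That is 26.3% of the members, where the same rule takes 16.0% of all genes (8.56% higher and 7.4% lower). The 4 reverted arrays lay entirely on one side of the 4 quiescent arrays for 4 members, against 8.73% of all genes (4.64% above and 4.09% below), with Dkk3 and Wnt5a above and Wnt9b and Sfrp5 below. For 35 of the 38 genes the 95% interval of the change, unadjusted for the number of genes, stayed within 1.5-fold in either direction. That is 92.1% of the members, against 97.0% of all genes. The exceptions were Dkk3, Wnt4 and Fzd8. Values are deposited log2 expression values, changes are reverted minus quiescent, and n = 4 arrays per group throughout.

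**Figure D1:**
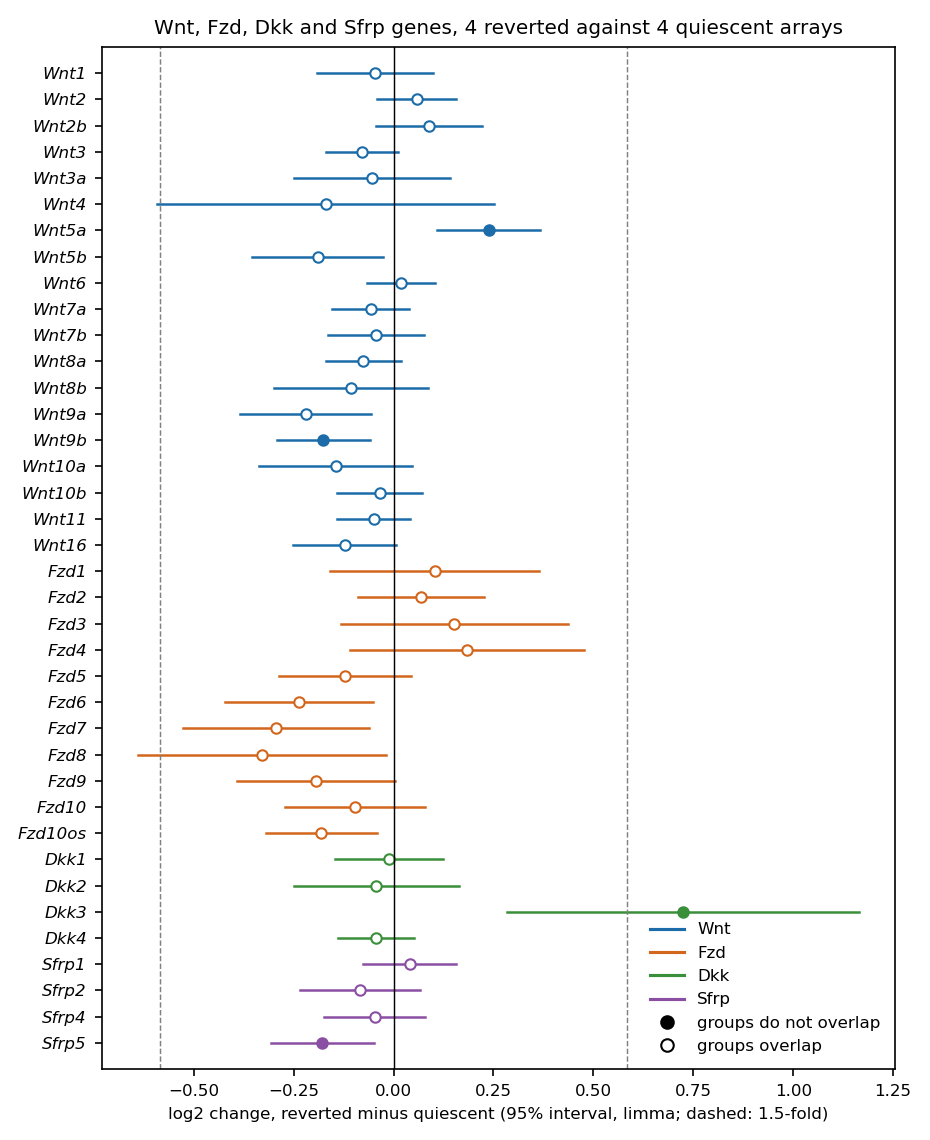
Log2 change (reverted minus quiescent) of each of the 38 genes with its 95% interval from limma, coloured by family, with dashed lines at 1.5-fold. Filled points are the 4 genes whose groups did not overlap, and the interval of Dkk3 reaches farthest, from 0.28 to 1.17.

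Promoter sequences were matched by symbol in RefSeq's table of assembly GRCm38.p6, which held windows for 25 of the 38 genes. Wnt9b and Sfrp5 are shown because they are the members with a listed window whose reverted arrays all lay below the quiescent ones. Each sequence is the 250 bases before the start site, 5′ to 3′ on the gene's strand, at chr11:103749822-103750071 (minus strand) for Wnt9b and chr19:42202253-42202502 (minus strand) for Sfrp5. Capitals mark the GC box GGGCGG on either strand, and overlaps would be merged.
Wnt9b: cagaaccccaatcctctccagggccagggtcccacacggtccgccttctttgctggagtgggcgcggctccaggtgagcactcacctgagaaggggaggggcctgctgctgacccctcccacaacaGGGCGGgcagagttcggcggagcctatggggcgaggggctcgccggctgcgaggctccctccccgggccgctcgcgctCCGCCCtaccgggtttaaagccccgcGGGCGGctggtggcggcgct
Sfrp5: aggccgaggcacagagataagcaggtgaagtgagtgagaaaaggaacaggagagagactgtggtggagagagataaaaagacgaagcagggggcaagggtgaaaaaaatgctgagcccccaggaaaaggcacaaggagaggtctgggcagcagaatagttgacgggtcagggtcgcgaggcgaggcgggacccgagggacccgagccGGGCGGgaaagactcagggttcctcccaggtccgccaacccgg
Wnt9b had 3 matches, at positions -124 to -119, -46 to -41 (on the opposite strand) and -20 to -15 before the start site, and Sfrp5 had 1, at -43 to -38. The TCF/LEF core, searched on both strands as CTTTGAA, as CTTTGAT, as CTTTGTA and as CTTTGTT, had 0 matches in both windows. It was found in 4 of the 28 windows of members (14.3%), those of Dkk1, Fzd7, Wnt11 and Wnt5b, against 14.8% of all 32851 windows. The GC box was found in 71.4% of the members' windows and in 32.7% of all. These matches describe the letters of the window.

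Probe set brightness sets a limit on what can be seen. On this array 30 of the 38 genes lay below the median brightness of all genes, including 17 of 19 Wnt and 4 of 4 Sfrp genes, and a change of a dim probe set can be understated. Background levels were not used here, so no statement is made on which of these genes are transcribed. The brightest members were Fzd1 (brightness percentile 92.0), Fzd8 (86.6), Wnt4 (86.3), Fzd4 (80.0), Fzd7 (78.5), Dkk3 (74.0), Fzd5 (62.1) and Wnt10a (51.6). The percentile describes the probe set and does not rank the genes by transcript abundance.

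Direction moved with brightness across the whole array. Of the 38 genes, 28 had a lower mean in reverted cells (73.7%), against 53.6% of all genes. Among the 30 dim members 23 were lower (76.7%), beside 71.3% of all 9968 genes in that range. Among the 8 brighter members 5 were lower (Wnt4, Wnt10a, Fzd5, Fzd7 and Fzd8), where 35.9% of 9970 genes were. The median change of the 38 genes was -0.06 and that of all genes -0.01. After quantile normalization 26 of the 38 were lower, and Dkk1 and Wnt10b had a higher mean.

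**Figure D2:**
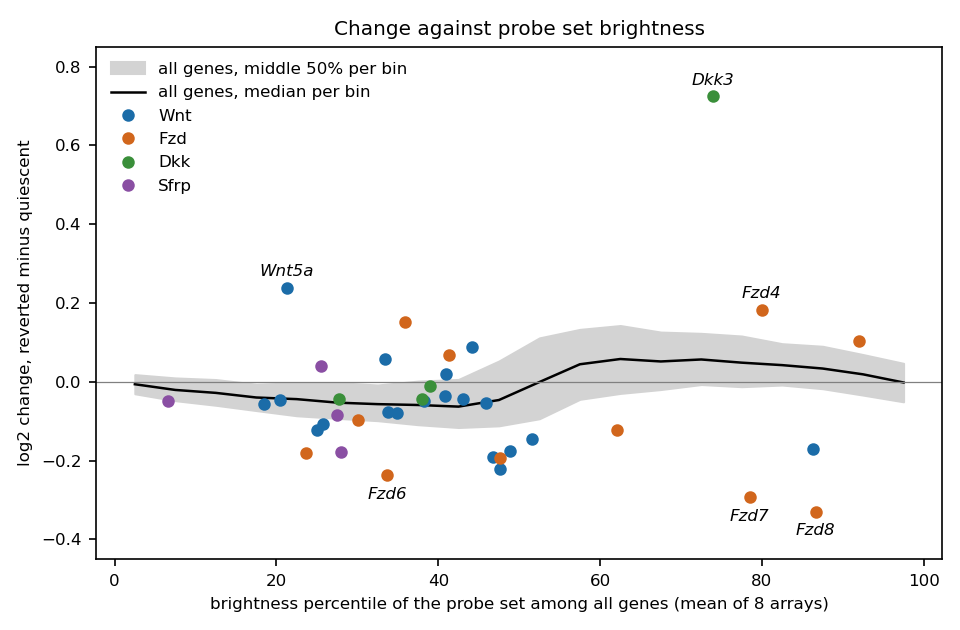
Log2 change against the brightness percentile of the probe set, with the 38 genes coloured by family and all 19938 genes as the median (line) and middle 50% (grey) of 20 bins of brightness. The median of all genes is below 0 in the dimmer bins and above 0 from the percentile 57.5 to 92.5. The grey band leaves out 50% of all genes by construction. Dkk3 (0.72), Fzd7 (-0.29) and Fzd8 (-0.33) lie outside it, as do other members such as Wnt5a (0.24) and Fzd5 (-0.12).

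Among the ligands, Wnt5a, which acts through Ror receptors in the branch without beta-catenin, was 6.25, 6.28, 6.19 and 6.15 in quiescent arrays 1 to 4. In reverted arrays 1 to 4 it was 6.32, 6.43, 6.52 and 6.56. Each reverted array lay above each quiescent array, by a margin of 0.04 between the closest pair. The change was 0.24 (SE 0.06), or 1.18-fold (adjusted p = 0.115), at a brightness percentile of 21.3. Dropping single arrays moved the change of Wnt5a between 0.20 and 0.28, and it did not pass in any of these fits. The adjusted p then lay between 0.0583 (reverted array 1 dropped) and 0.284 (reverted array 3 dropped).

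Wnt9b, a ligand known from the endothelium of the central vein, was 8.22, 8.13, 8.0004 and 8.04 in quiescent cells. The reverted arrays read 7.92, 7.92, 7.94 and 7.91, all below the quiescent arrays and within an SD of 0.01. Its change was -0.18 (SE 0.05, adjusted p = 0.166), at a brightness percentile of 48.9. Of the 5 listed markers of central vein endothelium 4 were measured, and 4 of 4 had a lower mean in reverted cells, against 53.6% of all genes. Kit and Cdh13 of this list were dim (percentiles 32.8 and 33.8). In the bin of brightness around the percentile 32.5, 78.0% of all genes had a lower mean. The mean log2 level of the 4 measured markers ran from 9.40 to 9.50 in quiescent and from 9.12 to 9.26 in reverted arrays. One of them, the thrombomodulin gene Thbd, was called (-0.57, adjusted p = 0.0408). Another is the Wnt amplifier Rspo3, which is among the bright genes of these cells (percentile 98.3). It is the brightest of the 4 and raises their mean level. The median percentile was 99.6 for the stellate markers and 48.6 for the markers of sinusoidal and vascular endothelium. Which cells gave the signal of Rspo3 was not tested. Of 15 markers of sinusoidal and vascular endothelium 11 had a higher mean, against 9253 of all 19938 genes. The array means of this list ran from 8.05 to 8.42 in quiescent and 8.16 to 8.67 in reverted cells. The part of endothelial cells in the values of Wnt9b was not tested. In RNA of a sorted population, fewer cells of a type and less RNA per cell cannot be told apart.

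Wnt2, the other ligand of that endothelium, was between 6.85 and 6.99 in quiescent and between 6.95 and 7.04 in reverted arrays, and the groups overlapped (change 0.06, adjusted p = 0.525). Wnt9a was 8.004, 8.12, 7.96 and 7.97 against 7.98, 7.82, 7.72 and 7.65. Reverted array 1 fell inside the quiescent range and the other three below it, with a change of -0.22 (SE 0.07, adjusted p = 0.202). Wnt5b, a relative of Wnt5a, was 8.06, 8.06, 7.80 and 7.79 against 7.84, 7.70, 7.72 and 7.69. Quiescent arrays 1 and 2 were the high ones, arrays 3 and 4 lay next to the reverted arrays, and the change was -0.19 (SE 0.07, adjusted p = 0.259). The signs of Wnt5a and Wnt5b were thus opposite, and the difference between these genes was not tested.

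Wnt4 had the brightest probe set among the ligands and the widest spread. It was 10.58, 11.31, 11.42 and 11.18 in quiescent cells and 11.35, 10.80, 10.87 and 10.78 in reverted cells. Quiescent array 1 read lower than each reverted array, and reverted array 1 read as high as the upper quiescent arrays. The change of -0.17 (95% interval -0.59 to 0.25, adjusted p = 0.667) was within the spread between replicates. It was -0.35 without quiescent array 1, -0.30 without reverted array 1, -0.07 without quiescent array 3 and -0.42 with the mean of hepatocyte markers as a covariate, and none of these passed (adjusted p between 0.304 and 0.881). Wnt4 was the single member with more than 1 probe set, and the dimmer one showed the same pattern with 9.75 in quiescent array 1 and 10.91 in reverted array 1 (change -0.08, adjusted p = 0.905 among 21789 probe sets).

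The remaining 13 Wnt genes had changes between -0.14 (Wnt10a) and 0.09 (Wnt2b), 11 of them lower and 2 higher, with adjusted p from 0.335 to 0.82. Their values lay between 6.09 and 8.50 on the log2 scale, and no gene among them spanned more than 0.42 over the 8 arrays. Wnt3a (-0.05), Wnt1 (-0.05), Wnt3 (-0.08), Wnt8a (-0.08) and Wnt10b (-0.03), which act through beta-catenin in many settings, were all in this group, as were Wnt11 (-0.05) and Wnt16 (-0.12). Wnt6 (0.02), Wnt7a (-0.06), Wnt7b (-0.04) and Wnt8b (-0.11) complete it.

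**Figure D3:**
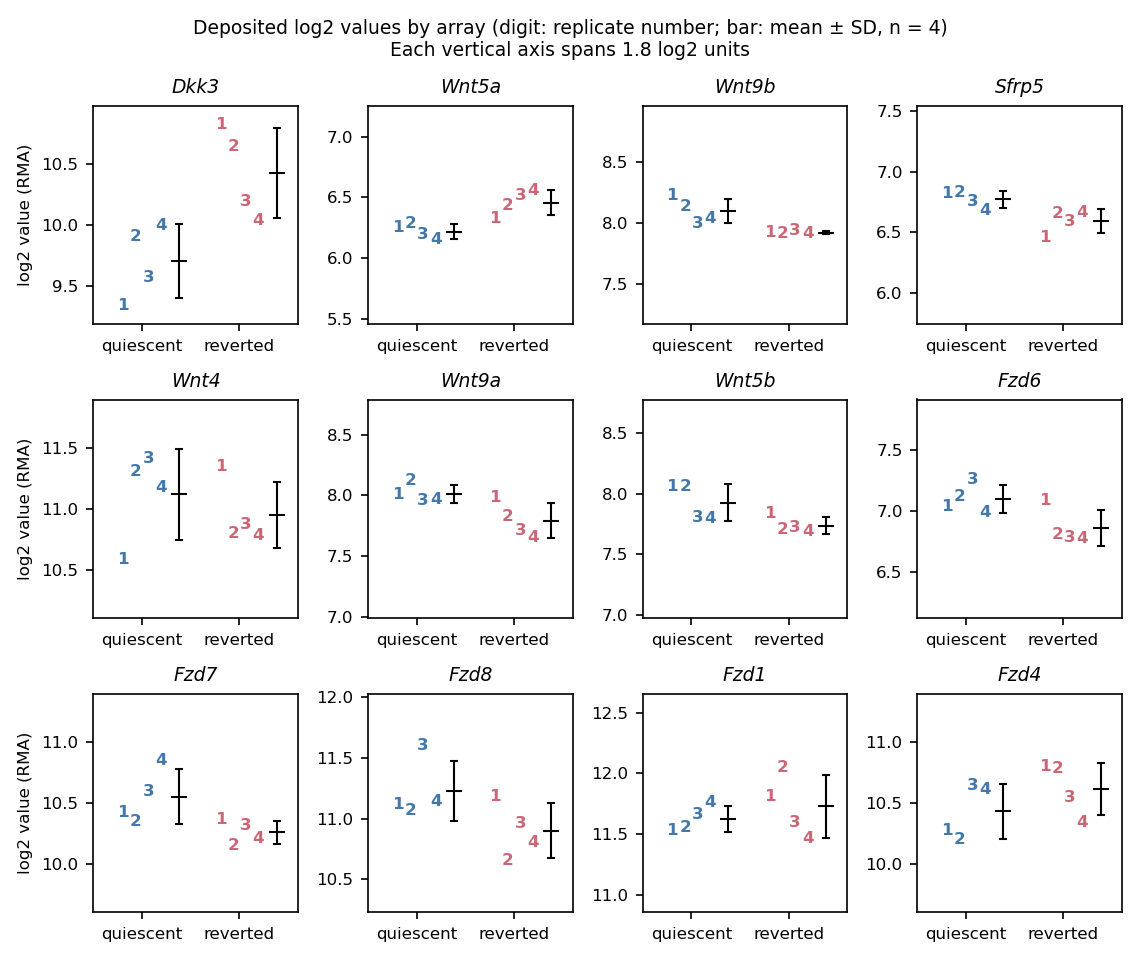
Deposited log2 values of 12 genes in each array, with the digit giving the replicate number and the bar the mean ± SD (n = 4 per group), on axes that each span 1.8 log2 units. The groups do not overlap for Dkk3, Wnt5a, Wnt9b and Sfrp5, while quiescent array 1 of Wnt4 (10.58) lies below its reverted arrays.

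Among the 10 Frizzled receptor genes, with Fzd10os set apart, 6 had a lower and 4 a higher mean, and 0 were called (smallest adjusted p = 0.224 in limma). Fzd7 was 10.42, 10.34, 10.60 and 10.85 in quiescent cells. It was 10.36, 10.15, 10.32 and 10.21 in reverted cells, where array 1 read just above the lowest quiescent array. The change was -0.29 (SE 0.10, adjusted p = 0.228), and it was -0.19 either without quiescent array 4 or with the hepatocyte covariate (adjusted p = 0.176 and 0.435).

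Fzd8 was 11.12, 11.07, 11.60 and 11.14 in quiescent and 11.18, 10.66, 10.96 and 10.80 in reverted cells. Its change was -0.33 (95% interval -0.64 to -0.02, adjusted p = 0.29). Quiescent array 3 stood above the rest, and without it the change was -0.21 (adjusted p = 0.385). Fzd6, a receptor tied to planar cell polarity, was 7.04, 7.12, 7.26 and 6.99 against 7.09, 6.81, 6.78 and 6.78. Here reverted arrays 2 to 4 lay below the quiescent arrays and array 1 among them, with a change of -0.24 (SE 0.08, adjusted p = 0.224). Fzd10os had 6.58, 6.68, 6.52 and 6.44 against 6.47, 6.36, 6.41 and 6.26 (change -0.18, adjusted p = 0.216), and the receptor gene Fzd10 had a change of -0.10 (adjusted p = 0.55).

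Fzd1, the brightest of the 38 probe sets, was 11.53, 11.55, 11.67 and 11.76 in quiescent and 11.81, 12.05, 11.60 and 11.46 in reverted cells. Reverted arrays 1 and 2 were above and array 4 below the quiescent range, so that the change of 0.10 (95% interval -0.16 to 0.36, adjusted p = 0.672) was within the spread between replicates. Fzd4, the receptor of Norrin on endothelial cells, was 10.27, 10.20, 10.65 and 10.61 against 10.80, 10.78, 10.54 and 10.34 (change 0.18, adjusted p = 0.499). Its reverted arrays 1 and 2 were again above the quiescent range, and arrays 3 and 4 were inside it. In both genes the difference between arrays of 1 group was larger than that between group means. The remaining receptors Fzd2 (0.07), Fzd3 (0.15), Fzd5 (-0.12) and Fzd9 (-0.19) had adjusted p between 0.32 and 0.637. Fzd9 was the single member that passed under any alternative, at a change of -0.29 (adjusted p = 0.0458) without quiescent array 4. That array read 7.73 against 8.19, 8.02 and 8.08 in the other quiescent arrays and 7.78, 7.79, 7.87 and 7.80 in the reverted arrays.

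**Figure D4:**
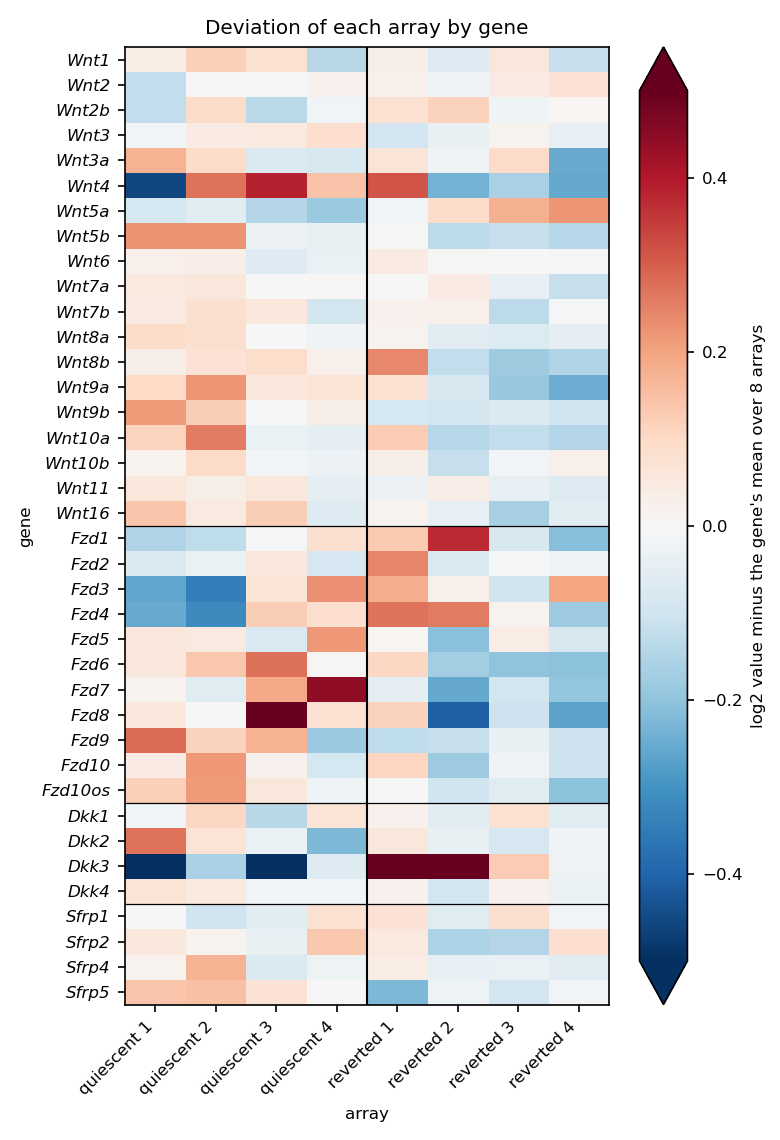
Each array's log2 value minus the gene's mean over the 8 arrays, with genes in rows by family and arrays in columns, and colours capped at 0.5 in either direction. Reverted array 1 is above the gene's mean for 31 of 38 genes, against 6 to 12 for reverted arrays 2 to 4.

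Across the 38 genes the 4 reverted arrays were not alike. Reverted array 1 was above the gene's mean over all arrays for 31 of the 38 genes, and reverted arrays 2, 3 and 4 were above it for 10, 12 and 6. The quiescent arrays were above it for 26, 28, 20 and 17 genes. In this count reverted array 1 was closer to quiescent arrays 1 and 2 than to the other reverted arrays. Over all genes the median deviation was 0.007 in reverted array 1 and -0.013, -0.006 and -0.003 in reverted arrays 2, 3 and 4. On the first principal component of all genes reverted array 1 lay on the side of the reverted arrays (6.07). Reverted array 1 also had the highest mean of the hepatocyte markers (9.21), whose part in these deviations was not tested. Without it 13 members had an unadjusted p under 0.05, 11 of them lower, and 0 were called. Without quiescent array 4 there were also 13, and 1 was called (Fzd9).

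Of the Dickkopf genes, Dkk3 had the largest difference of the 38. Dkk3 is the divergent member of its family and is secreted by many mesenchymal cells. It was 9.34, 9.90, 9.57 and 10.00 in quiescent cells and 10.83, 10.65, 10.19 and 10.04 in reverted cells. The groups did not overlap, but reverted array 4 exceeded quiescent array 4 by only 0.04. The change was 0.72 (SE 0.20), or 1.65-fold, with a 95% interval from 0.28 to 1.17, and it did not pass (adjusted p = 0.142). With each array left out in turn it ran from 0.59 to 0.85, with adjusted p from 0.0898 to 0.306.

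Markers of other mesenchymal cells were compared beside Dkk3. Of 10 portal fibroblast markers 3 had a higher mean, and Dpt was called (1.69, adjusted p = 0.0174). Cd34 had a change of 0.60. A lower mean was seen in 7 of 10, among them Eln (-0.34) and Clec3b (-0.22), against 53.6% of all genes. The list's median change was -0.085. The mean log2 level of the list, whose mean change was 0.13, ran from 8.18 to 8.23 in quiescent and 8.25 to 8.47 in reverted arrays. Of 9 mesothelial markers Wt1 was called (1.39, adjusted p = 0.00801) and the other 8 had a lower mean, among them the defining Msln and Upk3b. Those 8 lay below the median brightness, where 71.3% of all genes had a lower mean. The mesothelial mean ran from 6.78 to 6.96 and from 6.91 to 7.06. The part of such cells in the values of Dkk3 was not tested.

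The Lrp-binding antagonists differed little. Dkk1 ranged from 7.16 to 7.41 in quiescent and from 7.24 to 7.38 in reverted arrays (change -0.01, adjusted p = 0.941). Dkk2 had a change of -0.04 (adjusted p = 0.834) and Dkk4 of -0.04 (adjusted p = 0.618). Their 95% intervals lay within -0.25 and 0.16.

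The Sfrp genes, decoys for Wnt ligands, were all among the dim probe sets (percentiles 6.61 to 27.9). Sfrp5 was 6.82, 6.83, 6.75 and 6.68 in quiescent and 6.46, 6.66, 6.59 and 6.67 in reverted cells. The groups did not overlap, by a margin of about 0.01 between quiescent array 4 and reverted array 4, and reverted array 1 was the lowest. The change was -0.18 (SE 0.06, adjusted p = 0.195). Sfrp1 (0.04), Sfrp2 (-0.08) and Sfrp4 (-0.05) had adjusted p from 0.541 to 0.709.

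Outside the 4 families, the receptor gene Ror1 was the clearest difference in the pathway. Of 104 other pathway genes measured, taken from lists written with earlier results of these data known, 3 rose (2.88%), 0 fell and 101 did not pass, against 0.712% of all genes called. Their median change was -0.02. Ror1, a receptor tyrosine kinase that binds Wnt5a, was 10.35, 10.52, 10.34 and 10.44 in quiescent and 11.01, 10.95, 10.98 and 10.93 in reverted cells. The closest arrays of both groups were 0.41 apart, and the change was 0.55 (SE 0.05), or 1.47-fold (adjusted p = 0.00171). It passed under each of the 15 alternatives run, with a highest adjusted p of 0.0242. Its relative Ror2, named outside the rule after its value was seen, had a change of -0.09 (adjusted p = 0.56) at percentile 48.5.

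The Ror1 promoter is shown as that of the pathway gene with the smallest p. It is the 250 bases at chr4:100095541-100095790 (plus strand, GRCm38.p6), with the GC box in capitals.
Ror1: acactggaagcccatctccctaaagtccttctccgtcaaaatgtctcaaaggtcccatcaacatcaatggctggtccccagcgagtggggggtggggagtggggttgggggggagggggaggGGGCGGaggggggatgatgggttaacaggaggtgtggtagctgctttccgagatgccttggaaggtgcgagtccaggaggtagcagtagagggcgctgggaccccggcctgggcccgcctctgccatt
It had 1 GC box, at -128 to -123 before the start site, and 0 matches of the TCF/LEF core.

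Among 22 co-receptors and receptor regulators Ror1 rose, 0 fell and 21 did not pass. The next genes by p were Reck (-0.12, adjusted p = 0.163), which acts as a co-receptor for Wnt7 ligands, the Norrin co-receptor gene Tspan12 (0.30, adjusted p = 0.223) and the R-spondin receptor gene Lgr4 (0.19, adjusted p = 0.305). The median of this list was -0.03, against -0.01 over all genes.

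Of 22 genes of the beta-catenin cascade, Nkd2 rose and 0 fell. Nkd2, which binds Dishevelled and restrains signalling, was 7.45, 7.30, 7.45 and 7.47 in quiescent and 7.71, 7.76, 7.83 and 7.97 in reverted cells. The groups were 0.24 apart at the closest, with a change of 0.40 (SE 0.06, adjusted p = 0.0276). It did not pass when quiescent array 1, 2 or 3 was left out (adjusted p = 0.074, 0.0631 and 0.0586), when reverted array 2, 3 or 4 was left out (0.0557, 0.104 and 0.0672) or with the hepatocyte covariate (0.08). The beta-catenin inhibitor gene Ctnnbip1 (0.37, adjusted p = 0.206), the Dishevelled gene Dvl1 (-0.10, adjusted p = 0.249) and Apc2 (-0.40, adjusted p = 0.305) did not pass. The list's median was 0.01.

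Of 21 measured genes often used as beta-catenin targets 1 rose, 0 fell and 20 did not pass. A lower mean was seen in 14 of 21, against 53.6% of all genes, and the median was -0.06. Several of the lower ones, such as Lef1 (percentile 33.1), were below the median brightness, where 71.3% of all genes were lower. The riser was Cd44, a hyaluronan receptor that many cell types express. It was 8.02, 8.04, 8.03 and 8.32 in quiescent and 8.63, 8.46, 8.83 and 8.84 in reverted cells (change 0.59, SE 0.10, adjusted p = 0.0334). The call was lost with the hepatocyte covariate (0.105), when quiescent array 1, 2 or 3 was left out (0.104, 0.0917 and 0.0848) and when reverted array 1, 3 or 4 was left out (0.0604, 0.117 and 0.108). Lef1 (-0.18, adjusted p = 0.239), Ccn5 (-0.16, adjusted p = 0.257) and Glul (0.28, adjusted p = 0.276) came next. Axin2, a feedback inhibitor used widely as a readout of the pathway and named outside the rule, had a change of -0.37 (SE 0.15, adjusted p = 0.278), from 9.12 to 9.67 in quiescent and 8.76 to 9.34 in reverted arrays. Glul and Cyp2e1 of this list are also hepatocyte genes.

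Of 14 other secreted modulators 0 rose and 0 fell in limma, with 1 higher and 2 lower at an unadjusted p under 0.05, and the median was -0.07. Frzb, the Sfrp relative outside the symbol rule, was 11.83, 11.94, 11.74 and 11.88 in quiescent and 12.11, 12.02, 12.18 and 12.22 in reverted cells. The groups did not overlap, and the change of 0.29 (SE 0.06) had an adjusted p = 0.0611. Frzb passed under 1 of the 15 alternatives run, the intensity trend with robust variance (0.0351). Under the others it did not pass, and dropping reverted array 3 raised the adjusted p to 0.199. Igfbp4, a secreted protein that can block Frizzled and Lrp6, was lower in each reverted array (-0.39, adjusted p = 0.13), and so was Rspo3 (-0.13, adjusted p = 0.169). Draxin had a change of -0.16 (adjusted p = 0.323).

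The genes for ligand export, for planar polarity and for nuclear factors had 0 calls among 5, 12 and 14 measured genes in limma, with 0, 0 and 3 at an unadjusted p under 0.05. Wls, the carrier that brings Wnt ligands to the cell surface, was between 12.18 and 12.29 in quiescent and between 12.14 and 12.22 in reverted arrays (change -0.05, adjusted p = 0.577). The cargo receptor genes Tmed5 (0.19) and Tmed2 (-0.05), the retromer gene Vps35 (0.05) and Porcn (-0.0045), the acyltransferase of Wnt ligands, named outside the rule, complete that list. The polarity genes with the smallest p were Celsr2 (-0.12), Daam2 (0.11), Vangl1 (-0.07) and Celsr1 (-0.06). Of the nuclear factors, the Groucho co-repressor genes Tle3 (-0.17, adjusted p = 0.179) and Tle4 (0.23, adjusted p = 0.19) had opposite signs, and Lef1 and Pygo1 (-0.12) were lower.

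**Figure D5:**
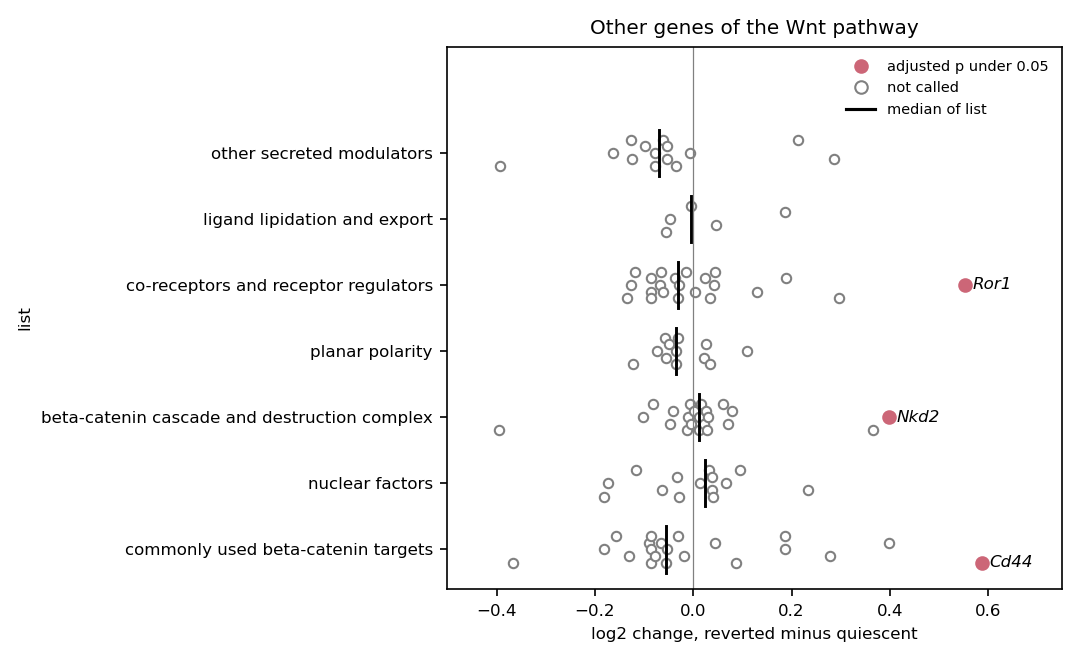
Log2 change of each measured gene in 7 lists of other Wnt pathway genes, with called genes filled and the list's median as a black bar. Ror1 (0.55), Nkd2 (0.40) and Cd44 (0.59) are the 3 called genes, and the medians lie between -0.07 and 0.02.

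Over the whole array 142 genes were called, 105 higher and 37 lower, and after quantile normalization 128 higher and 91 lower. Of 15 measured stellate markers Gfap fell (adjusted p = 0.0182), and 14 of 15 had a lower mean, against 53.6% of all genes. For 3 of 15 (Gfap, Ngfr and Colec11) each reverted array lay below each quiescent array, against 4.09% of all genes. The array means of the list ran from 13.285 to 13.347 in quiescent and 13.187 to 13.275 in reverted cells. They did not overlap, with 13.285 against 13.275 at the closest, and lay near the top of the scale. The list's median change was -0.03, and Gfap had the largest change (-0.49). Of 15 measured hepatocyte markers 0 were called and 15 had a higher mean (median change 0.43), against 9253 of all 19938 genes. For 2 of 15 (Apoa1 and Hpx) each reverted array lay above each quiescent array, against 4.64% of all genes. The array means of this list ran from 8.01 to 9.01 in quiescent and 8.69 to 9.21 in reverted cells, highest in reverted array 1. With that mean as a covariate 0 of the 38 genes passed and Fzd2 had a lower mean (-0.015). Markers of macrophages (3 of 11 higher), vascular smooth muscle (2 of 7), cholangiocytes (1 of 5) and lymphocytes (3 of 8) had 0 calls and overlapping array means. On the first principal component (35.3% of the variance) quiescent array 4 lay at -0.21, between the other quiescent arrays (-14.0 to -8.79) and the reverted arrays (6.07 to 11.5).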

How the data were processed

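Labelled RNA of 8 sorted cell samples was hybridised to a whole-transcript Affymetrix array. The deposited log2 values were made by the authors with RMA, per the submitters' processing notes; no source used here gives its version, settings or genome build. The table holds 35556 probe sets, of which 21789 carry 1 gene symbol in the platform annotation, 1621 several and 12146 are unlisted. Names were taken only from the first kind, and 0 needed an update through RefSeq. The probe set with the highest mean stood for a gene (19938 genes), with no filter on dim genes.

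The linear models of limma (version 3.58.1, R 4.3.3; lmFit, then eBayes) gave 2-sided p-values with no covariate, adjusted after Benjamini-Hochberg over all genes. For the contrast of reverted with quiescent cells this step was tested on simulated data in which 200 of 19938 genes were shifted: 87.5% were recovered at a log2 change of 0.58, with 4.89% of calls false, 98.5% at a log2 change of 1, with 6.64% of calls false, and 100% at 2, with 8.68% of calls false. The number of arrays limits the precision.

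The text names each of the 38 members, and of each pathway list the called genes and the 4 with the smallest p. Members called, with an unadjusted p under 0.05, with groups apart or brightest in their family are given with 8 values. The rule for members used the symbol alone and no measured difference. That rule and the lists were set with earlier results of these data known. Same-numbered arrays of both groups deviated from their group means with correlations from -0.15 to 0.08. Between arrays of different number the correlations ran from -0.24 to 0.33. Deviations within so small a group constrain each other, so these values cannot show whether the numbers pair the arrays. Plots used Python 3.11.15, pandas 2.3.3 and matplotlib 3.10.9.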

Additional observations from a re-analysis of the deposited data

Results flagged for a closer look

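In 4 of the 38 genes reverted array 1 stood far above the other 3 reverted arrays (Dixon's criterion for a gap within 4 values, which marks about 1 group in 20 by chance). They were Fzd6 (7.09, the next at 6.81), Wnt10a (8.37, next 8.12), Wnt4 (11.35, next 10.87) and Wnt8b (6.80, next 6.44). Fzd8 in quiescent array 3 was far above the other quiescent arrays (11.60, next 11.14). Without reverted array 1 the change of Fzd6 was -0.31 (adjusted p = 0.0806 in limma), and 13 members had an unadjusted p under 0.05 in place of 10.

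Among the named pathway genes the same criterion marked Nkd2 in quiescent array 2 (7.30, next 7.45), Cd44 in quiescent array 4 (8.32, next 8.04) and Glul in reverted array 2 (12.60, next 12.23). It also marked Tmed5 in reverted array 1 (9.81, next 10.11), Celsr2 in reverted array 4 (7.17, next 7.35) and Igfbp4 in reverted array 2 (11.71, next 12.11). In all, 11 of 134 groups of 4 values were marked, over 67 genes.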

How the results depend on the processing

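Of the 38 genes, 31 kept the sign of their change under each of 8 left-out arrays and 7 other alternatives. The exceptions were Dkk1 (0.034) and Wnt10b (0.0068) after quantile normalization, Fzd2 with the covariate of hepatocyte markers (-0.015), and, with single arrays left out, Dkk1 (-0.059 to 0.022), Dkk2 (-0.12 to 0.040), Sfrp4 (-0.080 to 0.0031), Fzd1 (-0.0039 to 0.19), Fzd2 (-0.0012 to 0.10) and Wnt3a (-0.094 to 0.021). The number of members called was 0 to 1 with single arrays left out and 0 otherwise. The number of pathway list genes called was 1 to 3 with single arrays left out, 1 with the hepatocyte covariate and 4 with the intensity trend and robust variance, where Frzb was added. Genes called over the array numbered 219 (91 lower) after quantile normalization and 37 (34 higher, 3 lower) with the hepatocyte covariate. With single arrays left out they numbered 54 (without reverted array 4) to 247 (without quiescent array 4), with 41 to 175 higher and 13 to 72 lower. The replicate block gave 63 calls (48 higher, 15 lower), with Nkd2 at an adjusted p = 0.0573, and whether the numbers pair the arrays is not known. The cause of these differences was not tested. The filter on dim genes left 33 of the 38 to test.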
